A study of Mus musculus with 16 samples.

Results

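The genes described here encode the inflammasomes of the macrophage and the caspases and kinases that act with them. They were chosen by symbol: Nlrp3, Aim2, Nlrc4, Pycard, Casp1, Casp4, Casp8, Gsdmd, Ripk1 and Ripk3, which are 10 of the 14925 genes with an annotated 3′-UTR in the deposited tables. An inflammasome is a protein complex in which a cytosolic sensor, triggered by a microbial or danger signal, gathers an adaptor that activates caspase-1. Active caspase-1 matures the cytokines interleukin-1β and interleukin-18 and cleaves gasdermin D, whose fragments form pores in the plasma membrane and kill the cell by pyroptosis. In macrophages lipopolysaccharide (LPS), a component of the bacterial cell wall, is the usual priming signal, which raises the mRNA of some of these genes before a further signal assembles the complex.

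The study asked which mRNAs the RNA-binding protein CPEB4 associates with in macrophages, and the data are RNA-immunoprecipitation followed by sequencing (RIP-seq). CPEB4 binds mRNAs at cytoplasmic polyadenylation elements (CPEs), which are motifs of a few bases, mostly U, near the 3′ end. Bone marrow-derived macrophages (BMDMs), which are cells grown out of the femurs of adult mice for 7 days with a conditioned medium that supplies M-CSF, were used for all groups. Both genotypes were labelled with the strain C57BL/6J 129. The wild-type (WT) cells came from the culture numbered 76 and the CPEB4 knockout (KO) cells from the culture numbered 73. The knockout is of the whole animal, Cpeb4-/-, and its cells lack the antigen of the antibody. Cells of each culture were left untreated or stimulated with 10 ng/ml of LPS for 9 h, then crosslinked with formaldehyde. RNA was sequenced from the lysate (Input, depleted of ribosomal RNA) and from what an anti-CPEB4 antibody recovered (RIP).

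The 16 deposited samples are 8 libraries, each run on 2 lanes. There was therefore 1 library per genotype, treatment and assay, no difference has a replicate check, and no p-value compares the genotypes. Intervals are at 95% and cover counting error only, and lanes or amplified copies of a library are not independent molecules. In bulk samples of this kind, fewer cells of a type and less RNA per cell cannot be told apart. The libraries held 467696 to 2492300 reads over 3′-UTRs, with the fewest in the KO RIPs. Cpeb4 itself, the targeted gene, had 130 and 136 CPM (counts scaled to a common 3′-UTR depth, per 1e6 reads) in the WT Inputs (untreated and LPS) and 52.0 and 52.6 CPM in the KO Inputs, so its 3′-UTR was still read in the KO. A list of 8 macrophage markers summed to between 2530 and 3560 CPM in the Inputs, whereas lists for T cells, B cells, neutrophils, fibroblasts and dendritic cells each stayed at or below 9.05 CPM.

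The 3′-UTRs of these genes differed widely in how much of them was counted, and this limits what can be said of each. For each gene the annotated region with the most reads was used, on build mm10. The region of Nlrp3 was chr11:59566264-59566956 (693 bases, last exon), that of Aim2 chr1:173465019-173466040 (1022 bases) and that of Nlrc4 chr17:74426295-74426841 (547 bases). The region of Pycard was chr7:127992103-127992711 (609 bases), that of Casp8 chr1:58846755-58847503 (749 bases) and that of Gsdmd chr15:75867240-75867404 (165 bases). Ripk1 had nested regions of 895 and 2388 bases that start at the same base, the longer of which was chr13:34032783-34035170, and Ripk3 had chr14:55784996-55785196 (201 bases). In the gene annotation used here the transcripts of Pycard, Ripk1 (longer region) and Nlrc4 run on for 2395, 1977 and 857 bases past these regions. Their windows are therefore partial, and motifs past them were not searched. For Casp1 the region was chr9:5306769-5306773, which is 5 bases at the end of exon 9 of 10. The region of Casp4 was chr9:5323720-5323798, 79 bases that are 3′-UTR in transcripts annotated for nonsense-mediated decay, and all 79 of them are coding sequence in another transcript of the gene. Reads of Casp1 and Casp4 therefore stem from the edge of a coding exon or from coding sequence, and the 3′-UTR of the last exon of Casp1 was not analysed here.

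Of the 10 genes, 3 carry a CPE prediction in the deposited tables, which is 30.0%, beside 31.8% of all 14925 genes. The predictions are repression for Nlrp3 and Aim2 and weak early activation for Ripk1. A search of the reference sequence (GRCm38.p6 from RefSeq, the coordinates of mm10) for the CPE form TTTTAT, for the form TTTTAAT, for TTTTACT with a C, for TTTTAAAT, for TTTTCAT as a variant and for the longer TTTTAAGT, on the strand of the transcript only, found 3 in Nlrp3, 3 in Aim2 and 2 in Ripk1, and none in the regions of the other 7 genes. The G form, TTTTGT, which the study's methods also count as a CPE in part of the work, was searched apart and found in Casp8 and Nlrp3, and in no other of the 10 regions. Of regions of similar length 45.5% (Casp8) and 42.6% (Nlrp3) held it. Of regions within 25% of the same length, 59.7% (Nlrp3), 70.8% (Aim2) and 91.4% (Ripk1) held at least 1 of the forms other than TTTTGT, and 62.7% did for the length of Casp8, 54.7% for Pycard and 21.2% for Gsdmd. These forms do not contain one another, although neighbouring motifs share flanking bases. The sites below are printed as RNA, 5′ to 3′, with the CPE in capitals, because they are the places where CPEB4 would be looked for in the 3 genes that have a prediction, with a G form of Nlrp3 and of Casp8 after them.

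Nlrp3, + strand, chr11:59566769-59566794: cauuguuuguUUUUAUuuuuuaauag
Nlrp3, + strand, chr11:59566777-59566802: guuuuuauuUUUUAAUaguuaugauu
Nlrp3, + strand, chr11:59566894-59566919: cuagaauucUUUUAAGUuauuuaucc
Aim2, + strand, chr1:173465825-173465850: uauauaauuUUUUAAUuuaaaaauuu
Aim2, + strand, chr1:173465839-173465864: auuuaaaaaUUUUAAAUuuccuuuug
Aim2, + strand, chr1:173466001-173466026: uaaauaugaUUUUACUcaugauucag
Ripk1, + strand, chr13:34033489-34033514: aaagucuacUUUUAAGUuucuaaagu
Ripk1, + strand, chr13:34035065-34035090: ugguucuguUUUUAAUaagauaaccu
Nlrp3, G form, + strand, chr11:59566835-59566860: uaaaacccauUUUUGUauuuauugua
Casp8, G form, + strand, chr1:58846786-58846811: aucugugcacUUUUGUguggaugagu

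Leaving the G forms aside, the last CPE of Nlrp3 began 54 bases before the end of the region and its polyadenylation signal 26 bases before it. The last CPE of Aim2 began 31 bases before the end, downstream of signals at 46 and 42 bases. The G form printed for Casp8 began 708 bases before the end. In Ripk1, 1 CPE lies in the part shared by both regions and the other lies in the distal part, 97 bases before the distal end. The signals at the 3′ end of the region (AAUAAA or AUUAAA, in capitals) are shown for Nlrp3, for Casp8, which has the G form only, and for Pycard and Gsdmd, whose regions have none of these forms.

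Nlrp3, + strand, chr11:59566921-59566946: aacuacuaaaAAUAAAucaguuuaca
Pycard, - strand, chr7:127992106-127992131: gaguuaugagAUUAAAugcauguauc
Casp8, + strand, chr1:58847472-58847497: uaauaauaauAUUAAAcuuuuuucug
Gsdmd, + strand, chr15:75867374-75867399: gggaaaacucAAUAAAuguacaaagg

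AUUUA, the core of the AU-rich elements that mark unstable mRNAs, was found 5 times in Nlrp3 and 3 times in Casp8. Aim2, Nlrc4 and Ripk1 had 1 each, and Pycard, Gsdmd and Ripk3 had none in these windows. Among regions of similar length 58.4% (Nlrp3) and 61.8% (Casp8) held at least 1.

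**Figure D1:**
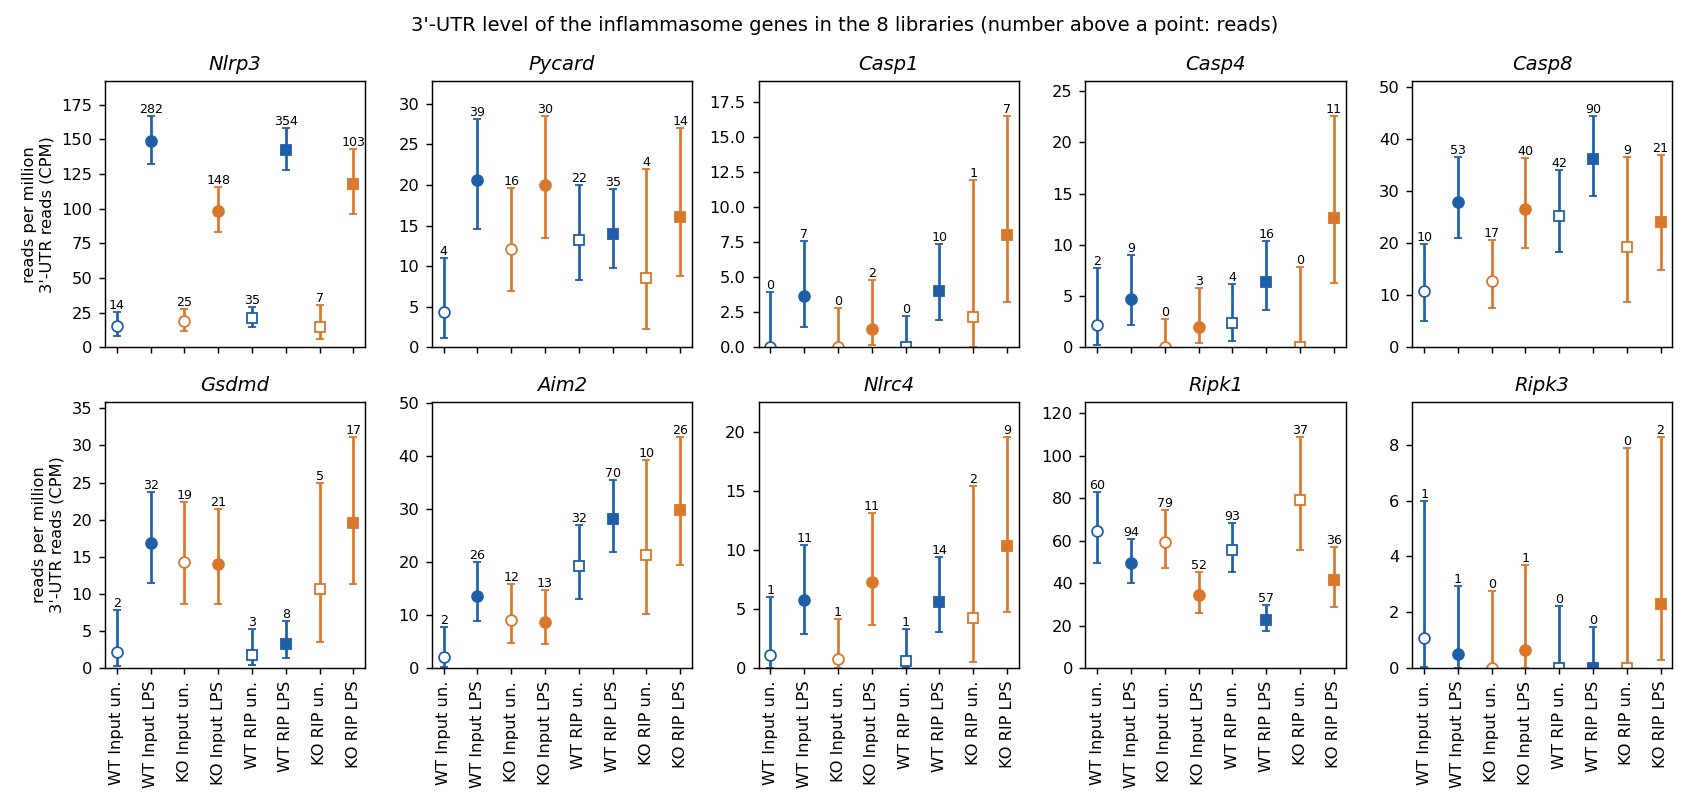
Each panel plots the CPM (linear axis from 0) of 1 gene in the 8 libraries, with exact 95% Poisson intervals and the number of reads above each point. Circles are Inputs and squares are RIPs, blue is WT and orange is KO, open symbols are untreated and filled symbols are LPS. Nlrp3 stands at 98.5 CPM or above in all 4 LPS libraries and at 21.0 CPM or below in all 4 untreated ones.

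Nlrp3 and Ripk1 were the genes with the most reads, and Ripk3, Casp1, Nlrc4 and Casp4 had too few for most comparisons. Per kilobase of region, which is the scale on which genes can be set beside each other, Nlrp3 reached 214 CPM per kb (190 to 241) in the WT LPS Input and 142 CPM per kb (120 to 167) in the KO LPS Input. Gsdmd followed with 102 CPM per kb (69.9 to 144) in the WT LPS Input, and Casp4 with 60.0 CPM per kb (27.5 to 114), from 9 reads, overlapped it. Pycard with 33.8 (24.0 to 46.1) and Casp8 with 37.3 (27.9 to 48.8) CPM per kb had overlapping intervals. Ripk1 stood at 20.7 (16.8 to 25.4), Aim2 at 13.4 (8.76 to 19.6) and Nlrc4 at 10.6 (5.29 to 19.0) CPM per kb, and the intervals of Aim2 overlapped those of both neighbours. Ripk3 was lowest at 2.62 CPM per kb (0.0664 to 14.6), from 1 read. Casp1 came to 738 CPM per kb (297 to 1520) from 7 reads only because its region is 5 bases long. With the read length added to the region, a setting chosen after seeing the data, Casp1 came to 35.5, Casp4 to 26.6, Gsdmd to 63.9 and Nlrp3 to 188 CPM per kb, and Nlrp3 was the highest.

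The first comparison asked what LPS did to the mRNA levels in the Inputs. In WT cells 5 of the 6 genes with at least 20 reads in the pair were over 2-fold higher after LPS and 0 were over 2-fold lower, and over all 6872 genes with enough reads 15.0% were higher and 15.3% lower by as much. In KO cells 2 of 6 were over 2-fold higher and 0 lower, beside 13.7% higher and 19.6% lower of 6996 genes. The genes with the same direction past 2-fold in both genotypes were Nlrp3 and Casp8, the latter just past the line in KO. The median log2 ratio of the 6 genes was 2.05 in WT and 0.32 in KO, and that of all genes was -0.055 and -0.161. The 6 genes were those that had enough reads, and Gsdmd and Aim2 entered the WT comparison through the LPS library alone, with 2 reads each in the untreated one, so that they had to differ there. Of genes with over 3 reads in both WT Inputs, 3 of 4 of the list were higher, beside 11.8% of 6579 genes.

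Nlrp3, the sensor of ion fluxes and membrane damage, had 14 reads in the untreated and 282 in the LPS-treated WT Input, and 25 and 148 in the KO Inputs. These were 15.1 and 149 CPM in WT and 18.9 and 98.5 CPM in KO, and no interval of an untreated library overlapped that of an LPS library. The LPS over untreated log2 ratio was 3.21 (2.46 to 3.96) in WT, a 9.24-fold rise, and 2.34 (1.74 to 2.94) in KO, a 5.06-fold rise. The difference of these ratios was 0.87 (-0.09 to 1.83).

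Aim2, the sensor of cytosolic DNA, had 2 and 26 reads (2.15 and 13.7 CPM) in the WT Inputs and 12 and 13 reads (9.05 and 8.65 CPM) in the KO Inputs, so that the untreated WT library stood low. The log2 ratio was 2.14 (0.42 to 3.86) in WT and -0.07 (-1.16 to 1.02) in KO. Nlrc4, which acts in the response to bacterial flagellin and secretion systems, had 1 and 11 reads in the Inputs of both genotypes. These were 1.08 and 5.80 CPM in WT and 0.754 and 7.32 CPM in KO. With 12 reads in each pair Nlrc4 was below the minimum of 20.

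Pycard encodes ASC, the adaptor that links sensors to caspase-1, and was read 4 and 39 times in the WT Inputs (4.31 and 20.6 CPM) and 16 and 30 times in the KO Inputs (12.1 and 20.0 CPM). The LPS libraries of the genotypes were alike within their intervals, and the untreated WT library was the lowest. The log2 ratio was 1.97 (0.63 to 3.31) in WT and 0.69 (-0.17 to 1.54) in KO.

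Casp8, the initiator caspase of extrinsic apoptosis that also restrains necroptosis, had 10 and 53 reads (10.8 and 27.9 CPM) in the WT Inputs and 17 and 40 (12.8 and 26.6 CPM) in the KO Inputs. Levels after LPS were higher in both genotypes, with log2 ratios of 1.27 (0.33 to 2.2) in WT and 1.01 (0.21 to 1.81) in KO. Casp1, the caspase of the canonical inflammasome, had 0 and 7 reads in the WT Inputs and 0 and 2 in the KO Inputs. By the exact Poisson intervals, counts of 0 allow levels of up to 3.97 CPM (WT) and 2.78 CPM (KO). The 7 reads in the WT LPS Input came to 3.69 CPM (1.48 to 7.6), below the limit of the untreated WT library. The interval of the WT fold change of Casp1, 0.49 to 31.3, held no change. Casp4, which encodes caspase-11, the intracellular receptor of LPS, had 2 and 9 reads in the WT Inputs and 0 and 3 in the KO Inputs.

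Gsdmd, the pore-forming substrate of the inflammatory caspases, had 2 and 32 reads (2.15 and 16.9 CPM) in the WT Inputs and 19 and 21 reads (14.3 and 14.0 CPM) in the KO Inputs. As for Aim2, 3 of the 4 Inputs were alike and the untreated WT Input stood low. The log2 ratio was 2.43 (0.72 to 4.13) in WT and -0.04 (-0.92 to 0.83) in KO, and with another scaling of the libraries the KO ratio ran to 0.15.

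Ripk1, the kinase that switches between survival signalling and cell death downstream of TNF and Toll-like receptors, was the gene of the 6 with a ratio below 0 in both genotypes and on every scale tried. It had 60 and 94 reads (64.6 and 49.5 CPM) in the WT Inputs and 79 and 52 reads (59.6 and 34.6 CPM) in the KO Inputs. The log2 ratio was -0.39 (-0.85 to 0.07) in WT and -0.77 (-1.28 to -0.27) in KO, so that the interval lay below 0 in the KO only, and the difference between these ratios was 0.38 (-0.3 to 1.07). Ripk3, the kinase that drives necroptosis, had 1 and 1 reads in the WT Inputs and 0 and 1 in the KO Inputs, which supports no ratio.

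**Figure D2:**
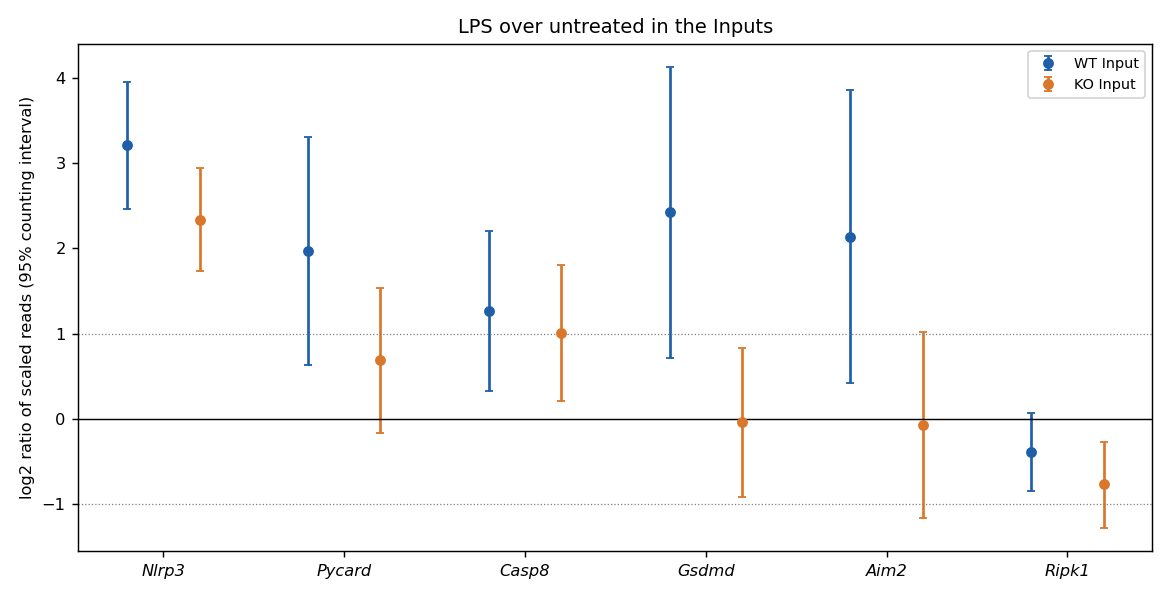
The plot gives the log2 ratio of LPS over untreated (vertical axis) for the 6 genes with at least 20 reads in the pair of Inputs, with 95% intervals from the reads, in WT (blue) and KO (orange). Dotted lines mark a 2-fold difference. The ratios of Nlrp3 and Casp8 lie above the upper line in both genotypes, and those of Pycard, Gsdmd and Aim2 in WT only, with intervals that overlap those of the KO.

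The LPS change itself was compared between genotypes by a test on the reads of the 4 Inputs, which compares these libraries and not the genotypes. Of 8163 genes, 1.58% passed an adjusted p of 0.05 in this normal test, and of the 7 genes of the list with enough reads 0 did. The interval of the difference lay above 0, without adjustment, for 2 of them. These were Gsdmd, at 2.47 (0.56 to 4.39), and Aim2, at 2.21 (0.18 to 4.25), both from an untreated WT Input with 2 reads. For the RIPs 1.19% of 8042 genes passed, and of the 8 genes of the list with enough reads 0 did, with 0 intervals off 0.

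The Inputs of the genotypes were also set against each other. In untreated cells 0 of 5 genes were over 2-fold higher in WT and 2 were lower, beside 1.27% higher and 2.75% lower of 6448 genes. These were Gsdmd, at a log2 ratio of -2.22 (-3.97 to -0.47), and Pycard, at -1.25 (-2.69 to 0.19). Gsdmd passed the read minimum through the KO library alone, so that it had to be lower in WT, and among genes with over 3 reads in both libraries 1 of 4 of the list was lower, beside 2.55% of 6435 genes. With LPS 0 of 7 genes were over 2-fold higher or lower, beside 2.0% higher and 1.60% lower of 6995 genes. Within that range Nlrp3 stood at 0.59 (0.30 to 0.87) and Ripk1 at 0.51 (0.02 to 0.99), both with intervals above 0. The other 5 genes ranged from -0.34 for Nlrc4 to 0.61 for Aim2 with intervals that held 0. Scaled to all mapped reads instead, Ripk1 came to 0.45 (-0.04 to 0.93), an interval that held 0, and Nlrp3 to 0.53 (0.25 to 0.82).

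The next comparison asked how much of each mRNA the antibody recovered, as the ratio of RIP over Input. The KO was taken as the background of recovery without antigen. Cpeb4 itself stood over its Input in the KO too, at log2 ratios of 2.29 (1.87 to 2.72) untreated and 2.79 (2.44 to 3.14) with LPS. In WT these were 2.67 (2.4 to 2.94) and 2.5 (2.31 to 2.68), all scaled to 3′-UTR reads. Of the list, Aim2 was the gene that stood over its Input in all 4 pairs. In WT cells 3 of 5 genes in untreated cells were over 2-fold higher in the RIP and 0 lower, beside 25.5% higher and 21.1% lower of 7013 genes. Aim2 entered this pair through the RIP alone, and with over 3 reads in both libraries 2 of 4 were higher, beside 21.7% of 6666 genes. With LPS 1 of 8 was higher and 2 were lower, beside 23.8% higher and 26.3% lower of 7637 genes. In KO cells 1 of 6 was higher and 0 lower in untreated cells (14.8% and 12.5% of 6233 genes), and 1 of 7 higher and 0 lower with LPS (14.3% and 12.2% of 6472 genes).

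Aim2 had 32 and 70 reads (19.2 and 28.1 CPM) in the WT RIPs, untreated and LPS, and 10 and 26 reads (21.4 and 29.8 CPM) in the KO RIPs. Its RIP level was thus alike in the genotypes on this scale. The RIP over Input log2 ratios were 2.62 (0.91 to 4.32) and 1.0 (0.36 to 1.64) in WT, and 1.26 (0.10 to 2.42) and 1.73 (0.80 to 2.66) in KO. The WT untreated ratio rests on 2 Input reads, and the WT LPS ratio lies at the 2-fold line. On library totals, where all mapped reads rather than 3′-UTR reads set the scale, the KO ratios were 0.50 and 1.05 and the WT ratios 2.68 and 1.52. The authors' MACS peak score for the region, a measure of the local excess of RIP over Input reads, was 117.83 in the WT LPS RIP and 0 in the other 3 RIPs.

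Casp8 had 42 and 90 reads (25.2 and 36.1 CPM) in the WT RIPs and 9 and 21 (19.2 and 24.1 CPM) in the KO RIPs. Its RIP over Input log2 ratio was 1.12 (0.17 to 2.08) in untreated and 0.36 (-0.13 to 0.85) in LPS-treated WT cells, and 0.66 (-0.46 to 1.77) and -0.11 (-0.86 to 0.63) in KO cells. It had a MACS score of 57.93 in the WT LPS RIP. Aim2 and Casp8 were 2 of the 10 genes with a peak in that library, where 15.4% of all genes had one, and 0 of 10 had one in the WT untreated (6.83% of genes), KO untreated (1.03%) and KO LPS (1.17%) RIPs.

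Pycard was read 22 and 35 times (13.2 and 14.0 CPM) in the WT RIPs and 4 and 14 times (8.55 and 16.1 CPM) in the KO RIPs. Its ratio of 1.36 (-0.04 to 2.75) in untreated WT cells was set against an Input of 4 reads, and the other 3 pairs stood between -0.55 and -0.26. Nlrp3 had 35 and 354 reads (21.0 and 142 CPM) in the WT RIPs and 7 and 103 (15.0 and 118 CPM) in the KO RIPs. With 636 reads in the WT LPS pair it was the most precise of the list, and its RIP over Input log2 ratio there was -0.07 (-0.29 to 0.16), or 0.45 on library totals. In the KO LPS pair it was 0.27 (-0.09 to 0.63), or -0.42 on library totals. Nlrp3 thus rose with LPS in the RIPs as it did in the Inputs, by 2.72 (2.23 to 3.22) in WT and 2.80 (1.77 to 3.84) in KO on the log2 scale.

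Gsdmd and Ripk1 were the 2 genes over 2-fold lower in the WT LPS RIP than in its Input. Gsdmd had 3 and 8 reads (1.80 and 3.21 CPM) in the WT RIPs and 5 and 17 reads (10.7 and 19.5 CPM) in the KO RIPs, so that the WT RIPs stood below the KO RIPs although they were sequenced more deeply. Its RIP over Input log2 ratio was -2.27 (-3.33 to -1.2) in WT LPS cells, -0.23 (-1.55 to 1.08) in untreated KO cells and 0.50 (-0.40 to 1.39) in LPS-treated KO cells. Ripk1 had 93 and 57 reads (55.8 and 22.9 CPM) in the WT RIPs and 37 and 36 reads (79.1 and 41.3 CPM) in the KO RIPs. Its RIP over Input log2 ratio was -0.22 (-0.68 to 0.25) and -1.11 (-1.58 to -0.63) in WT, and 0.43 (-0.13 to 0.99) and 0.27 (-0.34 to 0.87) in KO. On library totals the WT LPS ratio of Ripk1 was -0.59, with TMM -0.8 and with median of ratios -0.93, none of them past 2-fold, and the KO ratios turned to -0.34 and -0.42 on library totals.

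**Figure D3:**
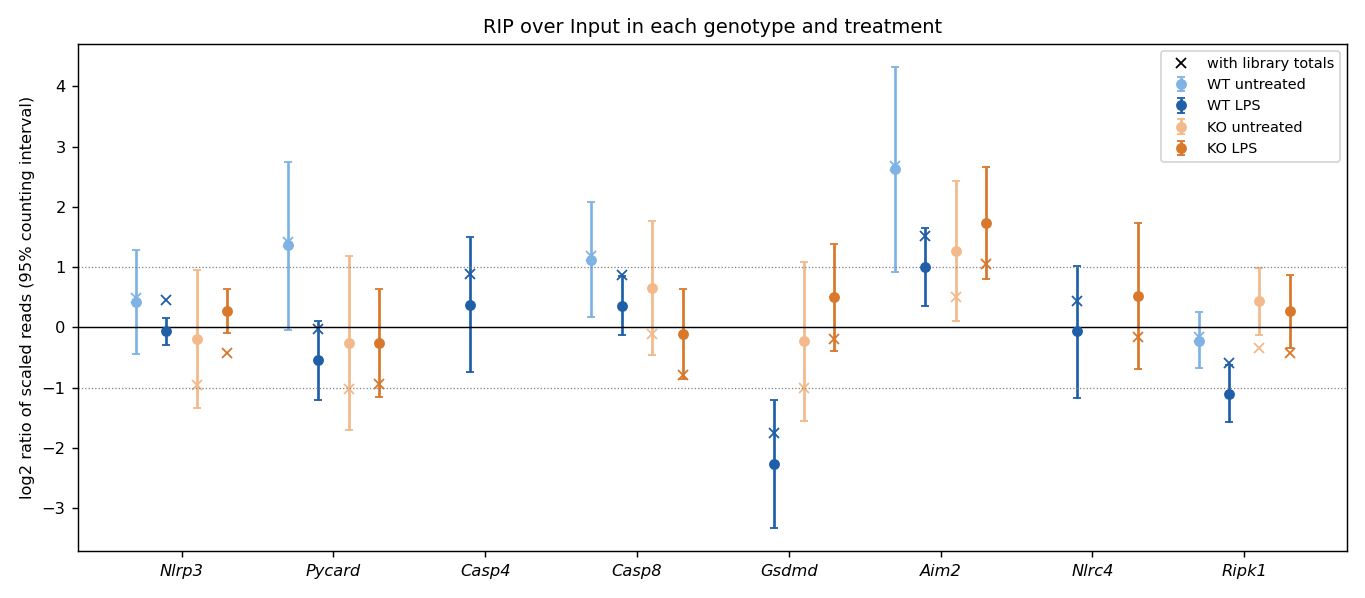
The plot gives the log2 ratio of RIP over Input (vertical axis) for the 8 genes with at least 20 reads in a pair, with 95% intervals from the reads. Blue shades are WT and orange shades KO, light for untreated and dark for LPS, crosses give the same ratio scaled to library totals, and dotted lines mark a 2-fold difference. Aim2 lies above 0 in all 4 pairs, and Gsdmd lies below the lower line in the WT LPS pair only.

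The study took mRNAs more abundant in the WT than in the KO RIP as associated with CPEB4. It required a log2 RPKM ratio over 0.5 or 1.2 with a read test, or over 0.5 with a high peak score. In this comparison no gene of the list was over 2-fold higher on 3′-UTR totals, a line that differs from those of the study. In untreated cells 0 of 5 genes were higher and 0 lower, beside 9.85% higher and 11.0% lower of 6581 genes. With LPS 0 of 8 were higher and 2 lower, beside 10.2% higher and 13.8% lower of 7073 genes. The scale decides part of this, because the 3′-UTR share of all reads was 27.3% and 31.8% in the KO RIPs but 48.9% and 70.1% in the WT RIPs. On library totals, the scale of the deposited RPKM values, every WT over KO RIP ratio is higher by 0.842 (untreated) or 1.141 (LPS) on the log2 scale. Then 3 genes were over 2-fold higher in untreated cells (Casp8, Nlrp3, Pycard), 3 were with LPS (Aim2, Casp8, Nlrp3), and Gsdmd alone remained over 2-fold lower. The shares of all genes past 2-fold on that scale are not given here, so these counts have no background beside them.

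Casp8 had the highest WT over KO RIP ratio of the list with LPS, at 0.53 (-0.14 to 1.2) on 3′-UTR totals and 1.67 (1.0 to 2.35) on library totals. Nlrp3 followed at 0.26 (-0.06 to 0.57) and 1.4 (1.08 to 1.71), and Aim2 stood at -0.12 (-0.76 to 0.52) and 1.02 (0.38 to 1.66). With TMM and median of ratios Casp8 stood at 0.87 (0.2 to 1.54) and 0.69 (0.02 to 1.37). Nlrp3 then stood at 0.59 (0.28 to 0.91) and 0.42 (0.1 to 0.73), and Aim2 at 0.22 (-0.42 to 0.86) and 0.04 (-0.6 to 0.68). All 3 genes changed their side of the 2-fold line with the scale, and Aim2 also changed direction.

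Gsdmd was lower in the WT than in the KO LPS RIP on every scale that was tried. Its log2 ratio was -2.52 (-3.67 to -1.36) on 3′-UTR totals, which is 5.72-fold lower, -2.18 with TMM scaling, -2.35 with median-of-ratios scaling and -1.38 on library totals. The Inputs of the same cells differed by 0.25 (-0.53 to 1.03), and the input-corrected ratio, which subtracts the log2 ratio between the Inputs from the one between the RIPs, was -2.76 (-4.16 to -1.37). Short regions in general were lower in the WT LPS RIP. Among 423 genes with regions of up to 250 bases, a grouping made after the values were seen, the median WT over KO log2 ratio was -0.59, with quartiles of -1.44 and 0.16, and it was 0.13 among 4463 genes with regions over 1000 bases. The part of region length in the ratio of Gsdmd, whose region is 165 bases, was not tested.

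Ripk1 was lower in the WT RIPs to a lesser extent, at -0.53 (-1.07 to 0.02) in untreated cells and -0.87 (-1.46 to -0.27) with LPS, and the direction turned on library totals, to 0.32 and 0.27. Casp4, with 16 reads in the LPS RIP of WT and 11 in that of KO cells, stood at -1.01 (-2.08 to 0.05) and turned to 0.13 on library totals. Nlrc4, with 14 and 9 reads, stood at -0.93 (-2.09 to 0.22) and turned to 0.21 on library totals, and Casp1, with 10 and 7 reads, was below the minimum. Ripk3 had 0 reads in both WT RIPs and in the untreated KO RIP, and 2 reads in the KO LPS RIP. At this depth 0 reads allow up to 2.21 and 1.48 CPM in the WT RIPs and 7.89 CPM in the untreated KO RIP.

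With the Inputs taken into account, 2 of 6 genes were over 2-fold higher in WT and 0 lower in untreated cells, beside 15.1% higher and 18.8% lower of 7865 genes. These were Pycard at 1.62 (-0.38 to 3.63) and Aim2 at 1.35 (-0.71 to 3.42), both with intervals that held 0. With LPS 0 of 9 genes were higher and 4 lower, beside 11.6% higher and 22.6% lower of 8147 genes. Besides Gsdmd these were Casp1 at -2.13 (-4.46 to 0.19), Casp4 at -2.0 (-3.98 to -0.01) and Ripk1 at -1.37 (-2.14 to -0.61). The ratios of Casp1 and Casp4 rest on 2 and 3 reads in the KO LPS Input. The interval of Casp4 held 0 with TMM (-3.62 to 0.34) and with median of ratios (-3.75 to 0.22). On library totals Gsdmd alone stayed past 2-fold, at -1.57, and Ripk1 came to -0.17.

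**Figure D4:**
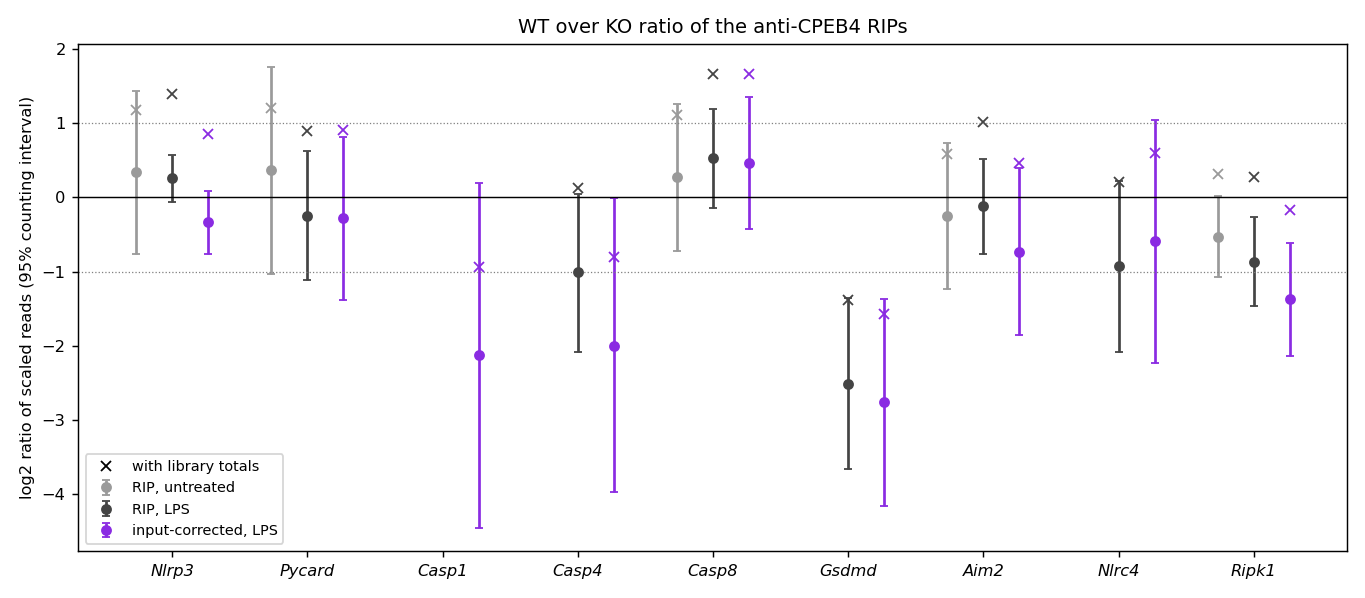
The plot gives the WT over KO log2 ratio (vertical axis) of the RIPs in untreated (light grey) and LPS-treated (dark grey) cells and the input-corrected ratio with LPS (purple), with 95% intervals from the reads, for genes with enough reads. Crosses give the ratio scaled to library totals, and dotted lines mark a 2-fold difference. Gsdmd lies below the lower line in both LPS ratios on both scales, and the crosses of the other genes lie above their points by about the shift of all genes.

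Ripk1 has 2 nested regions with different ends, so its reads could be divided into those of the 895 bases shared by both regions and those counted only in the 1493 distal bases. The distal share was 63.3% (50.7 to 74.4, Wilson interval) in the untreated WT Input and 63.3% (52.3 to 73.1) in the untreated KO Input. With LPS it was 51.1% (41.1 to 60.9) and 51.9% (38.7 to 64.9). The genotypes were thus alike in the Inputs, with lower values after LPS whose intervals overlapped those of the untreated libraries.

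In the RIPs the distal share was 49.5% (39.5 to 59.4) and 38.6% (27.1 to 51.6) in WT, untreated and LPS, and 29.7% (17.5 to 45.8) and 19.4% (9.75 to 35.0) in KO. All 4 RIPs stood below the Input of the same cells. The RIP over Input log2 ratio of the distal part minus that of the proximal part was -1.94 (-3.11 to -0.76) and -2.01 (-3.38 to -0.65) in the KO, and -0.79 (-1.74 to 0.15) and -0.71 (-1.66 to 0.24) in WT. The WT over KO RIP ratio was higher in the distal than in the proximal part by 1.14 (0.00 to 2.28) in untreated cells and by 1.26 (-0.09 to 2.62) with LPS. This difference between parts does not depend on the scaling of the libraries, but the ratio of each part does. On 3′-UTR totals the distal ratios were 0.14 (-0.78 to 1.05) untreated and 0.01 with LPS. The proximal ratios were lower in WT, at -1.0 (-1.68 to -0.32) and -1.25 (-1.95 to -0.55). On library totals the proximal ratios were -0.16 and -0.11, and the distal ones were higher in WT, at 0.98 in untreated cells. The distal RIP over Input ratio with LPS was -1.48 (-2.2 to -0.77) in WT and -1.02 in KO. The distal part holds the second CPE printed above, whose part in these values was not tested. A processed pseudogene, Gm17084, is annotated in the distal part at chr13:34034526-34035036 on the same strand. Reads there may therefore be shared with the sequence the pseudogene derives from.

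**Figure D5:**
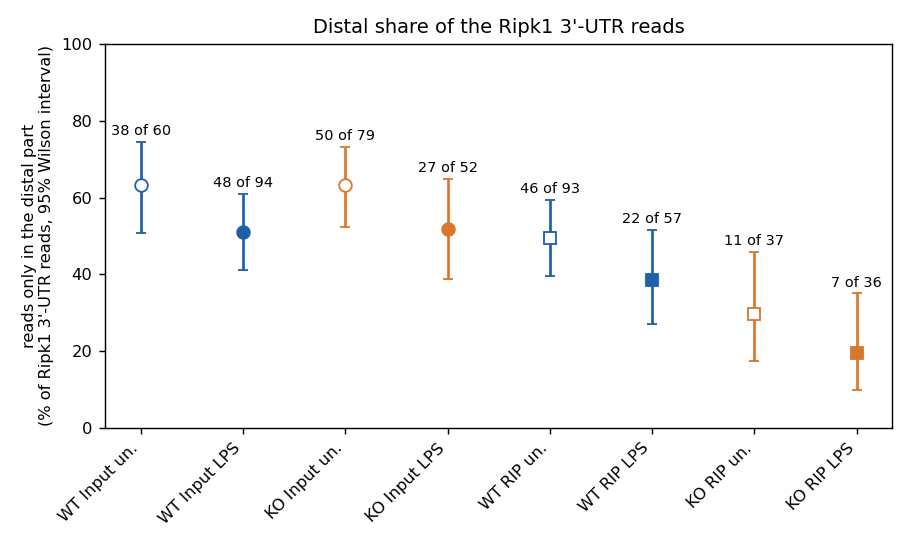
The vertical axis gives the share of Ripk1 3′-UTR reads that lie only in the distal part (percent, from 0 to 100) in the 8 libraries, with 95% Wilson intervals and the reads behind each share. Circles are Inputs, squares RIPs, blue is WT and orange KO, open is untreated and filled LPS. The Inputs lie between 51.1% and 63.3%, the WT RIPs at 49.5% and 38.6% and the KO RIPs at 29.7% and 19.4%.

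Some other genes of the pathway had larger LPS ratios than any of the sensors and caspases. Of 43 listed partners, substrates and regulators 40 were in the tables and 28 had enough reads in each pair of Inputs. In WT 14 of the 28 were over 2-fold higher after LPS and 1 was lower, against the 15.0% and 15.3% of all genes given above, and in KO 14 were higher and 4 lower. Of the higher genes 9 in WT and 7 in KO had 3 or fewer reads in the untreated Input, so that they had to be higher to pass the read minimum. Of the rest 5 of 19 were higher in WT, beside 11.8% of all genes with over 3 reads in both libraries, and 7 of 21 in KO, beside 12.1%. The lower gene in WT, and the lowest in KO, was P2rx7, the ATP-gated channel upstream of NLRP3, which is named after its values were seen. It had log2 ratios of -2.81 (-3.37 to -2.25) and -2.86 (-3.40 to -2.32), and the other 3 in KO were Casp2, Cyld and Fadd.

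The caspase-1 substrate Il1b had 3 and 983 reads in the WT Inputs and 3 and 764 in the KO Inputs, with log2 ratios of 6.91 (5.50 to 8.33) and 7.40 (5.98 to 8.82). Il1a, which encodes the alarmin interleukin-1α, rose from 0 to 750 reads in WT, a log2 ratio of 8.52 (5.69 to 11.35). In KO it rose from 1 to 206 reads, a log2 ratio of 6.51 (4.50 to 8.52). Il1b and Il1a had 3 or fewer reads in each untreated Input, so that they had to be higher to pass the read minimum. Both cytokine mRNAs thus rose from near 0 in both genotypes, and the WT over KO Input ratio of Il1a with LPS was 1.52 (1.3 to 1.74).

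The guanylate-binding proteins, which bring caspase-11 to bacterial membranes, were higher with LPS in both genotypes for all 4 listed genes. Gbp2 in WT, and Gbp3, Gbp5 and Mlkl in both genotypes, had 3 or fewer untreated Input reads. They therefore had to be higher to pass the read minimum. Gbp5 had log2 ratios of 6.71 (5.08 to 8.35) in WT and 6.77 (5.35 to 8.19) in KO. Gbp2 had 5.53 (3.89 to 7.17) and 5.03 (3.95 to 6.11), and Gbp7 had 4.41 (3.25 to 5.58) and 3.53 (2.68 to 4.38). Gbp3 rose by 3.89 (2.23 to 5.55) in WT and from 0 to 80 reads in KO, a log2 ratio of 6.16 (3.31 to 9.0). Mlkl, the pore-former of necroptosis and the target of RIPK3, rose by 3.32 (1.64 to 4.99) in WT and 3.88 (2.2 to 5.56) in KO. Tnfaip3, which encodes the ubiquitin-editing inhibitor A20, rose by 3.12 (2.67 to 3.57) and 2.97 (2.58 to 3.37).

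The genes whose profile over the 8 libraries was nearest to that of Nlrp3, by Euclidean distance of centred log2 CPM among 2615 genes with at least 20 reads in each library, were Acsl1 (0.831), Bnip3 (0.936) and Hk2 (1.08), where the median distance was 4.48. Their LPS over untreated log2 ratios in the WT and KO Inputs were 2.89 and 3.18 (Acsl1), 2.82 and 3.06 (Bnip3), and 2.17 and 2.18 (Hk2). For Casp1, which the same rule took up because of its 5-base region, the nearest were Ifit3 (1.35), H2-T24 and Igsf6 (1.80 each), from counts of at most 10 reads a library.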

How the data were processed

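Data for each of the 8 libraries were the deposited read counts per 3′-UTR region. According to the methods, the authors aligned 100-base single-end reads to mm10 with Bowtie2 2.2.2 in local mode, removed duplicate reads, and counted overlaps with Ensembl 3′-UTR regions, and whether strand was used is not given in the sources used here. The RPKM values deposited by the authors were used only to recover each library total. The deposited score is the highest MACS 1.4.2 peak score over a region. The deposited fold changes and p-values are the authors' comparisons and were not used.

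Of 31117 regions, 495 without a symbol (0.902% to 1.04% of reads) were left out. For each of 14925 genes the region with the most reads was kept. Counts were scaled to the sum of the remaining regions, 1 read was added, and log2 ratios were given with normal 95% intervals. Genes needed 20 reads over the libraries compared, and no ratio is given where both had 3 or fewer. Levels have exact Poisson intervals. The members and lists were chosen with earlier results of these data known. Named genes were the 10 members, Cpeb4, up to 8 pathway genes past 2-fold with LPS in both Inputs with at least 50 reads a pair, and the 3 nearest profiles. Alternatives were library totals, TMM (edgeR 4.0.16 in R 4.3.3), median of ratios, 0.1 reads added, no read minimum, the longest region and the study's read test rule, on 3′-UTR totals and, added later, on library totals. The ratio script was tested on simulated data. Python 3.11.15, pandas 2.3.3 and scipy 1.17.1 were used. Not every motif site found is reported here.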

Additional observations from a re-analysis of the deposited data

How the results depend on the processing

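No paired analysis was possible because the shared numbers are lanes of 1 library, which the tables sum. For LPS over untreated in the WT Input, 5 genes were higher and 0 lower under each alternative, except that 7 were higher with no read minimum (Casp1 and Nlrc4 in addition). On library totals, the RIP over Input count of lower genes in WT LPS cells went from 2 to 1 (Gsdmd), and in untreated KO cells 0 were higher and 2 lower (Gsdmd, Pycard). There the WT over KO RIP comparison had 3 higher in untreated cells, and 3 higher and 1 lower with LPS, and the input-corrected one had 4 higher in untreated cells, and 1 higher (Casp8) and 1 lower (Gsdmd) with LPS. Casp4 reversed to 0.13. With TMM and with median of ratios the lower genes went from 2 to 1 (Gsdmd) for RIP over Input in WT LPS cells and for WT over KO RIP with LPS, and the latter also with 0.1 reads added. With no read minimum, 1 gene (Casp1) was higher in the WT than in the KO LPS Input, 3 (Aim2, Casp1, Casp4) were higher in RIP over Input of KO LPS cells, and 1 (Gsdmd) was lower in WT over KO RIP of untreated cells. The study's read test rule was here run with ratios and test on 3′-UTR totals and without the study's criterion on the peak score. Under it 1 gene (Nlrp3) was higher with LPS in the KO Input. For WT over KO Input 1 (Gsdmd) was lower in untreated cells and 1 (Nlrp3) higher with LPS. RIP over Input had 1 higher (Aim2) in untreated WT cells and 0 higher in WT LPS and untreated KO cells. WT over KO RIP had 1 lower (Gsdmd) with LPS. Counts that did not move under this rule, among them those of lower genes in RIP over Input, are left out. The study's rule names an RPKM ratio, and the deposited RPKM values of these libraries are on the library totals. Whether the study's WT over KO ratio used the same values is not given in the sources used here. With the ratio on library totals and the test on 3′-UTR totals, a setting chosen after seeing the data, these counts were the same except that 1 gene (Aim2) was higher in RIP over Input of WT LPS cells. With ratio and test both on library totals, also added then, 1 gene was higher with LPS in the KO Input, 1 lower in WT over KO Input of untreated cells and 0 higher with LPS, RIP over Input had 1 higher in untreated WT, 2 higher (Aim2, Casp8) and 1 lower (Gsdmd) in WT LPS, 0 in untreated KO and 0 in KO LPS cells, and WT over KO RIP with LPS had 3 higher (Aim2, Casp8, Nlrp3) and 1 lower (Gsdmd). The cause of these differences was not tested, except that a change of scale shifts all genes alike. Shares of all genes past the line under these alternatives are not given here. Of the single-gene ratios, 20 moved by more than their counting error on library totals and 2 did with TMM. Depth limits Ripk3, Casp1, Casp4 and Nlrc4, which had at most 16 reads in any library.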

Other observations

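Some other genes of cell death had WT RIPs below their Inputs, and they are given here as values chosen after they were seen, apart from Mlkl. Ninj1, which encodes the membrane protein that ruptures the plasma membrane at the end of pyroptosis, had RIP over Input log2 ratios of -2.01 (-2.57 to -1.45) and -2.08 (-2.47 to -1.70) in untreated and LPS-treated WT cells, and of -1.06 (-1.74 to -0.37) and -0.68 (-1.08 to -0.28) in KO cells. Its region was 190 bases. Mlkl, with a region of 228 bases, stood at -1.74 (-2.42 to -1.06) in WT LPS cells and -0.27 (-0.98 to 0.43) in KO LPS cells. Casp9, with a longer region of 2289 bases, stood at -1.17 (-1.56 to -0.78) and -1.45 (-1.77 to -1.13) in untreated and LPS-treated WT cells. In KO cells it stood at -0.63 and -1.04. Tradd, with 699 bases, stood at -1.26 and -0.72 in WT cells and at -0.74 and -1.1 in KO cells. The WT over KO RIP ratios with LPS of Ninj1 and Mlkl were -1.43 (-1.91 to -0.95) and -1.52 (-2.33 to -0.70). On library totals these were -0.29 (-0.77 to 0.19) and -0.38 (-1.19 to 0.44), with intervals that held 0. Casp2, an initiator caspase with a region of 2031 bases, lay on the other side, with WT over KO RIP ratios of 1.29 (0.68 to 1.90) in untreated cells and 1.14 (0.54 to 1.74) with LPS (2.13 and 2.28 on library totals), and RIP over Input ratios of -1.37 (-1.99 to -0.76) and -1.02 (-1.65 to -0.39) in the KO. Of the 31 pathway genes with enough reads in the LPS RIPs, 3 were over 2-fold higher in WT and 2 lower, beside 10.2% and 13.8% of all genes. On library totals 17 were higher and 0 lower, and the shares of all genes on that scale are not given here.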
